A study of Mus musculus with 12 samples.

Results

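Mboat1, Ankrd22, Gml and Fhdc1 were 4 genes whose signal stood higher in the jejunum of Fgfr1op knockout (KO) mice than in that of wild-type (WT) mice from day 6 through day 12. They were chosen by these same KO minus WT values, by day and by array, with no numeric threshold. They are 4 of the 19938 genes that had a probe set of their own on the array. Because the contrast between genotypes chose them, that contrast is described here without a test. Tests are kept for other genes and for changes between days. The choice did not use these changes directly, but they rest on the same arrays.

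The samples were whole jejunum, the middle stretch of the small intestine, so epithelium, muscle, stroma and immune cells all entered each value. Fgfr1op, now Cep43, encodes a centrosomal protein, and its ablation was inducible. Per the labels' protocols tamoxifen in corn oil was injected into the abdomen at 75 mg per kg on 5 days in a row, and tissue was taken at days 6, 9 and 12 of a scale labelled post-tamoxifen. Each of the 6 groups, WT and Fgfr1op KO at each of the 3 days, held 2 mice with 1 array per mouse. The injection protocol stands with the WT and KO samples alike and names no genotype. Sex, age, strain, the promoter behind the recombinase and whether WT mice carried it were not stated, so an effect of the recombinase cannot be told apart from that of gene loss. Cep43 itself lay between 6.83 and 7.05 log2 units in WT arrays and between 6.56 and 6.97 in KO arrays, with KO minus WT at -0.31, -0.39 and -0.09 at days 6, 9 and 12. Its probe set may lie outside the deleted part, so it checks the labels weakly.

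The 4 genes belong to separate families. Mboat1 is a membrane-bound O-acyltransferase that puts a fatty acid back onto lysophospholipids, the step by which cells remodel the fatty acids of their membranes after a phospholipase has cut one off. Fhdc1 is a formin, one of a family that builds unbranched actin filaments, and it also acts on microtubules and the Golgi. Gml encodes a surface protein of the Ly6/uPAR family, small cysteine-rich domains that are mostly held on the membrane by a lipid anchor. Ankrd22 is a small protein made largely of ankyrin repeats, a fold that binds other proteins, and its role in the gut is less well described.

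RefSeq's promoter table of build GRCm38.p6 held 3 of the 4 genes. Their upstream bases are shown because the genes stood high together while their start regions differ in composition. Each is given up to the first base of the gene's RefSeq span, on the gene's strand, for Mboat1 at chr13:30136240-30136450 (plus strand), for Fhdc1 at chr3:84480440-84480689 (minus strand) and for Ankrd22 at chr19:34166042-34166291 (minus strand). Capitals mark the letters GGGCGG (the GC box) and TGANTCA (the AP-1 motif), on either strand.
Mboat1: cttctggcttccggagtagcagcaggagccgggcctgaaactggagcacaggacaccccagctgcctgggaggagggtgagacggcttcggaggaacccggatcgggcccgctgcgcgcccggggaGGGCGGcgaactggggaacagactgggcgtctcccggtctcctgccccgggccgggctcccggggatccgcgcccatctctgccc
Fhdc1: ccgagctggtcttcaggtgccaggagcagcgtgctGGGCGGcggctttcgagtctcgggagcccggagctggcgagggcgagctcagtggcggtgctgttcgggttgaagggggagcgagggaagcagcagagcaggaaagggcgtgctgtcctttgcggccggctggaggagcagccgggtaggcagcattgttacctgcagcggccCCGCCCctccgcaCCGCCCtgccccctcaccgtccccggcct
Ankrd22: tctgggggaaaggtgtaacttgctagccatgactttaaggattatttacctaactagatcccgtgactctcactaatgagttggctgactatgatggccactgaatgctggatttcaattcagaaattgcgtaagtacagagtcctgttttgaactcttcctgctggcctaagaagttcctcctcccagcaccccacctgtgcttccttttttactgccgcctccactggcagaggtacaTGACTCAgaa

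Motifs were searched in the 250 bases before the start that each RefSeq entry gives. For Mboat1 that start lies inside the gene's span, so the last 39 bases of its window are searched but not printed. Mboat1 held 1 GC box and Fhdc1 held 3, and 32.7% of the 32851 RefSeq promoter entries held at least 1. Ankrd22 held 1 AP-1 motif, whose first base lay 10 bases before the start, and 6.75% of entries held at least 1. Mboat1 also held CCAAT, in the bases not printed, and 33.8% of entries held it. Mboat1 and Fhdc1 held the NF-kB letter pattern, found in 45.8%. A second entry for Fhdc1, inside the gene, held GGGCGG and the NF-kB pattern as well. TATAAA (in 12.4% of entries), GGAATG (the TEAD motif, 12.6%), TTCNNNGAA (the STAT motif, 7.02%), CACGTG (6.02%) and the p53 half-site (7.13%) had no match in these windows. No motif of this set was shared by all 3 genes, and overlapping matches were counted.

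Mboat1 had the largest difference of the 4 at day 6. Its log2 signals in WT were 7.07 and 7.19 at day 6, 7.08 and 6.95 at day 9, and 7.13 and 6.78 at day 12. In KO they were 9.71 and 9.36 at day 6, 10.75 and 10.54 at day 9, and 10.60 and 10.67 at day 12. No KO array came near a WT array: the lowest KO signal exceeded the highest WT signal by 2.17 log2 units, while the 6 WT arrays spanned 0.41. KO minus WT was 2.40 at day 6 (SE 0.14, n = 2 per genotype), 3.63 at day 9 and 3.68 at day 12, that is 5.30-fold, 12.4-fold and 12.8-fold. By the size of this difference Mboat1 had rank 3 of all genes at day 6, rank 8 at day 9 and rank 16 at day 12.

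Within KO, Mboat1 rose from day 6 to day 9, and no further step was called. The rise was 1.11 log2 units (SE 0.14, n = 2 per day, limma adjusted p = 0.000368), with both day 9 arrays above both day 6 arrays. From day 9 to day 12 it moved by -0.01 (95% interval -0.33 to 0.30, limma adjusted p = 0.960), and the arrays of those days overlapped. These day contrasts were not part of the choice, but they rest on arrays that were.

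Fhdc1 took another course: it stood at one level at days 6 and 9 and stepped up by day 12. In WT its log2 signals were 7.67 and 7.09 at day 6, 7.11 and 7.68 at day 9, and 7.59 and 7.53 at day 12. In KO they were 9.20 and 8.66 at day 6, 8.78 and 9.04 at day 9, and 9.87 and 10.20 at day 12. The groups did not overlap on any day, with 0.98 log2 units between the highest WT and the lowest KO array. Fhdc1 also had the widest spread between mice of one group among the 4 (residual SD 0.31, wider than in 97.6% of genes). KO minus WT was 1.55 (SE 0.24), 1.52 and 2.47 at days 6, 9 and 12, or 2.93-fold, 2.87-fold and 5.55-fold.

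From day 6 to day 9 Fhdc1 moved by -0.02 in KO (95% interval -0.54 to 0.50, limma adjusted p = 0.969), and the KO arrays of the 2 days overlapped. From day 9 to day 12 it rose by 1.12 log2 units (SE 0.24, n = 2 per day, limma adjusted p = 0.00745), with both day 12 arrays on top. With KO day 9 replicate 1 left out the step was 0.99 and no longer passed (adjusted p = 0.0621), and the same held for KO day 12 replicate 2 (0.96, adjusted p = 0.0619). It also ended with the smooth muscle signal as a covariate (0.96, adjusted p = 0.0585).

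Gml showed the steepest climb. Its WT log2 signals were 6.76 and 6.77 at day 6, 6.21 and 6.75 at day 9, and 6.02 and 5.86 at day 12. Its KO signals were 8.06 and 8.39 at day 6, 10.61 and 10.40 at day 9, and 10.19 and 9.72 at day 12. KO arrays lay above WT arrays throughout, by at least 1.29 log2 units. KO minus WT was 1.46 (SE 0.19) at day 6, or 2.75-fold, the smallest of the 4 at that day. It was 4.03 at day 9 and 4.02 at day 12, 16.3-fold and 16.2-fold, the largest of the 4 on both days. Day 6 thus held 36.3% of the log2 difference of day 12 for Gml, against 65.4% for Mboat1, 62.6% for Fhdc1 and 55.8% for Ankrd22.

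In KO, Gml rose by 2.28 log2 units from day 6 to day 9 (SE 0.19, n = 2 per day, limma adjusted p = 1.95e-05). Its move of -0.55 from day 9 to day 12 did not pass (SE 0.19, limma adjusted p = 0.0598), although both later arrays lay below both earlier ones. That value passed without either WT array of day 9 (adjusted p = 0.0396 each) and without KO day 12 replicate 1 (-0.79, adjusted p = 0.0185). It also passed with quantile normalisation (-0.63, adjusted p = 0.0465) and with the smooth muscle covariate (-0.85, adjusted p = 0.0263). The WT mean moved by -0.54 over the same interval (SE 0.19, limma adjusted p = 0.464).

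A second probe set, annotated to both Gml and its neighbour Gml2, was not used in choosing the genes. The platform table pairs it with the RefSeq transcript of Gml2, and the RefSeq spans of the 2 genes overlap, so signal of one cannot be told apart from signal of the other there. Its WT log2 signals were 4.96 and 5.67 at day 6, 4.92 and 5.16 at day 9, and 4.91 and 4.60 at day 12. Its KO signals were 7.22 and 7.61, then 10.05 and 10.08, then 10.03 and 9.97. Its WT means fell under 5.33, the level below which 95% of 1027 odorant receptor genes lay, so no fold is given. Its KO mean moved by 2.65 log2 units from day 6 to day 9 and by -0.06 from day 9 to day 12, with no test, where that of the probe set for Gml alone moved by 2.28 and -0.55.

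**Figure D1:**
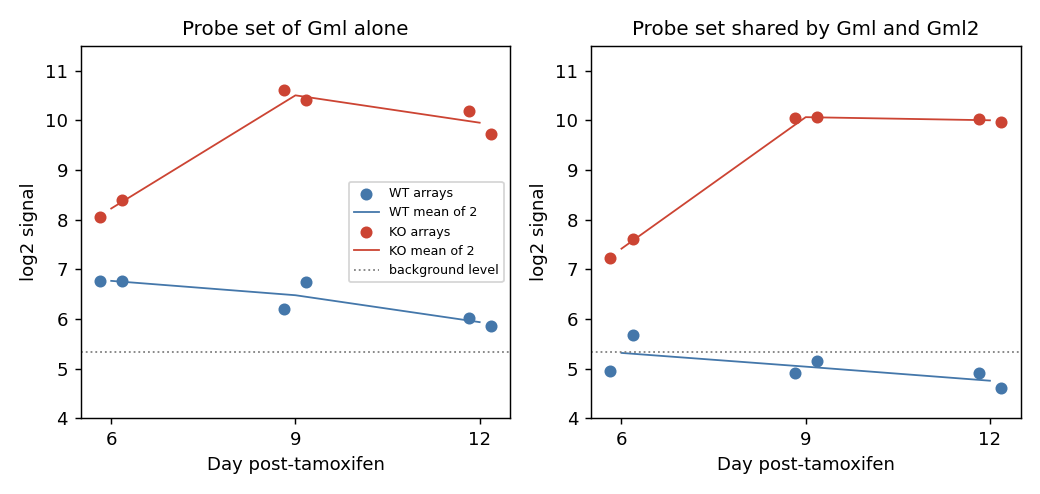
Log2 signal (y axis) at days 6, 9 and 12 (x axis) for the probe set of Gml alone (left) and the one shared with Gml2 (right); each point is 1 array, lines join the means of 2 arrays and the dotted line marks the background level of 5.33. Both probe sets climb in KO between days 6 and 9, the shared one from 7.22 and 7.61 to 10.05 and 10.08, and its WT means lie under the dotted line.

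Ankrd22 rose in KO at each step. Its WT log2 signals were 5.82 and 6.04 at day 6, 5.72 and 5.57 at day 9, and 5.60 and 5.73 at day 12. In KO they were 7.95 and 7.66, then 8.63 and 8.48, then 8.92 and 9.15. The gap between the highest WT and the lowest KO array was 1.63 log2 units. KO minus WT was 1.88 (SE 0.13), 2.91 and 3.37 at the 3 days, or 3.68-fold, 7.53-fold and 10.3-fold.

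Within KO, Ankrd22 gained 0.75 log2 units from day 6 to day 9 (SE 0.13, n = 2 per day, limma adjusted p = 0.00206) and 0.48 from day 9 to day 12 (SE 0.13, limma adjusted p = 0.0224). Each later pair of arrays lay above the earlier pair. The second step no longer passed when KO day 9 replicate 1 (0.55, adjusted p = 0.0541), its replicate 2 (0.40, adjusted p = 0.101) or KO day 12 replicate 2 (0.36, adjusted p = 0.155) was left out. The same held with quantile normalisation (0.35, adjusted p = 0.0730), with only the arrays of these 2 groups (0.48, adjusted p = 0.0813) and with the muscle covariate (0.54, adjusted p = 0.0561).

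**Figure D2:**
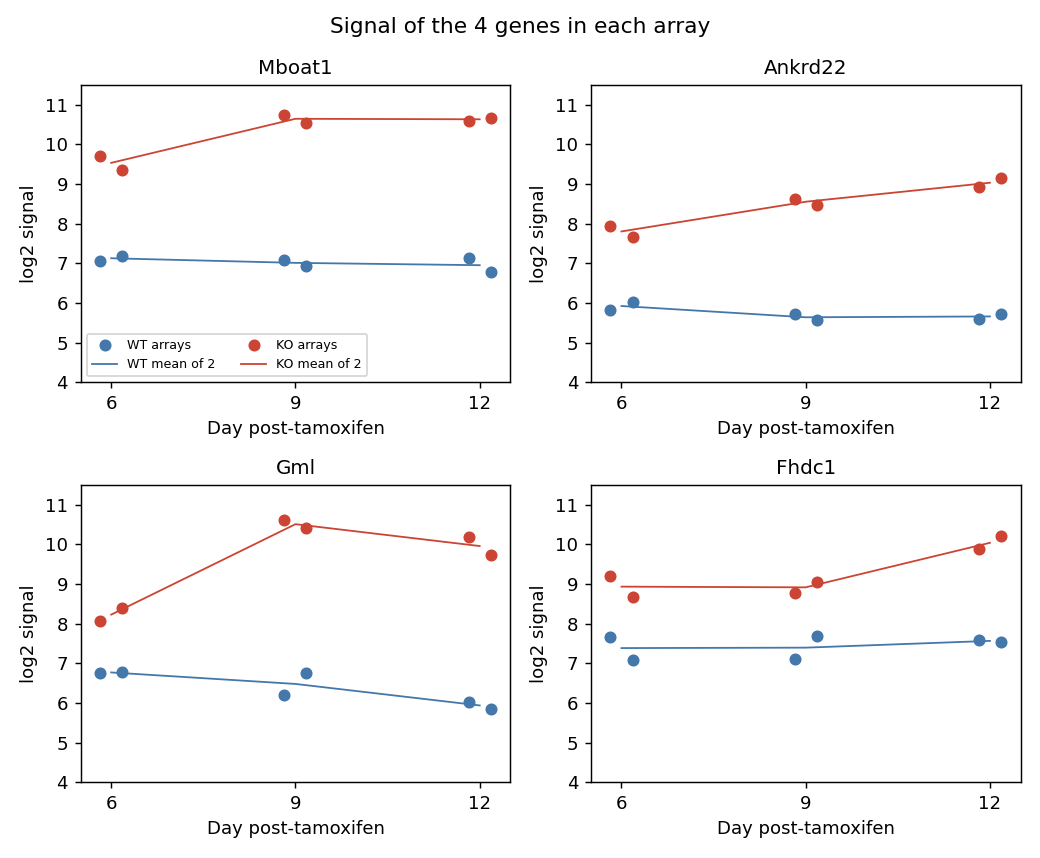
Log2 signal (y axis) of Mboat1, Ankrd22, Gml and Fhdc1 in each array at days 6, 9 and 12 (x axis), with WT in blue, KO in red and lines joining the means of 2 arrays. KO points lie above WT points in each panel, and Fhdc1 alone shows overlapping KO arrays at days 6 and 9 (8.66 to 9.20 and 8.78 to 9.04).

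Across all genes, limma called (adjusted p under 0.05) 10% of 19938 genes higher at day 9 than at day 6 in KO and 14.1% higher at day 12 than at day 9. Of the 4 genes, 3 were called higher over the first step (Mboat1, Ankrd22 and Gml) and 2 over the second (Ankrd22 and Fhdc1). The 4 were chosen by values of these same KO arrays, so nothing is read from their counts beside these shares. In WT the shares were 0.0401% and 0%. Over the second WT step 0 genes were called in either direction, with 1783 at an unadjusted p under 0.05. None of the 4 was called in WT over either step with limma, and their WT moves ran from -0.54 (Gml, day 9 to day 12) to 0.17 (Fhdc1, same step). Whether the day course differed between genotypes was not tested.

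The order of the 6 group means was alike in its main split and unlike within KO. For all 4 genes the 3 WT means lay under the 3 KO means. Within KO the highest mean was that of day 9 for Mboat1 (10.65, against 10.63 at day 12, which overlapped) and Gml (10.50), and that of day 12 for Ankrd22 (9.04) and Fhdc1 (10.04). The lowest was day 6 for Mboat1 (9.54), Gml (8.23) and Ankrd22 (7.81), and day 9 for Fhdc1 (8.91, against 8.93 at day 6, which overlapped).

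**Figure D3:**
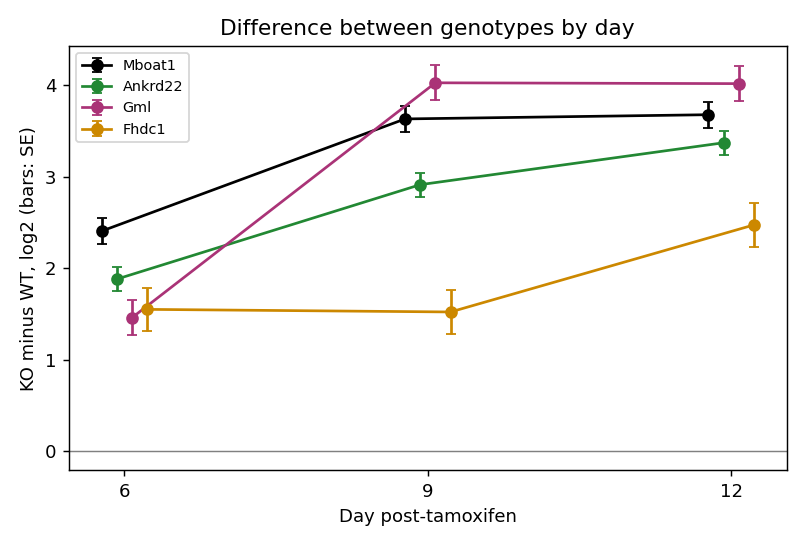
KO minus WT in log2 units (y axis) by day (x axis) for the 4 genes; points are differences of 2 against 2 arrays and bars are SE. Gml goes from the smallest difference at day 6 (1.46) to the largest at day 9 (4.03), while Fhdc1 stays at 1.55 and 1.52 before reaching 2.47 at day 12.

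Profiles were compared by the root mean square (RMS) gap over the 12 arrays, each gene being set to 0 at its WT mean. Mboat1 and Ankrd22 were each other's nearest gene (RMS gap 0.41 log2 units), and Mboat1 was also the nearest to Gml (0.46). The next gene to Mboat1 was Btc, betacellulin, a ligand of the EGF receptor (0.65). After Mboat1, Ankrd22 lay nearest to the progestin receptor Paqr8 (0.46) and the aldo-keto reductase Akr1b8 (0.49). Gml was next nearest to Sprr1a, a cornified envelope protein (0.52), and to the mitochondrial protein Fam162a (0.57). Fhdc1 stood apart from the other 3, with gaps of 1.09 to Mboat1, 0.72 to Ankrd22 and 1.23 to Gml. Its nearest genes were the zinc finger gene Zfp37 (0.33), Prrg4 (0.34) and the MAP kinase phosphatase Dusp1 (0.38). These gaps are descriptions, and most of each profile is the split between WT and KO.

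Set among all genes, 119 of 19938 (0.597%) were called higher in KO at day 6, 12.6% at day 9 and 13.7% at day 12. A total of 80 genes (0.401%) were called higher at each of the 3 days with both KO arrays above both WT arrays each time. The 4 genes are among them by the way they were chosen, so nothing is read from their place there. Gml left this group without WT day 6 replicate 1 or KO day 6 replicate 2. Fhdc1 left it without WT day 6 replicate 2 or KO day 6 replicate 1. Of the 119 genes called at day 6, these 80 were all that met the rule at the later days too, and 39 did not. By the smallest of the 3 differences, genes of like size that were not chosen were the MAP kinase phosphatase Dusp8 (1.79, 1.96 and 1.56 log2 units at days 6, 9 and 12), Akr1b8 (1.49, 2.83 and 2.35), the B cell adaptor Blnk (1.45, 1.69 and 1.55) and the bile acid transporter Slc10a2 (1.40, 3.79 and 3.34). Ckb, the brain creatine kinase, had a smallest difference of 1.31, as did Paqr8. The difference was largest at day 12 in 42 of the 80, at day 9 in 33 and at day 6 in 5.

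The size of this group rested on single arrays. It grew without either KO array of day 12, and it shrank when any other array was left out. It was 13 and 46 without WT day 6 replicates 1 and 2, 12 and 11 without KO day 6 replicates 1 and 2, 36 and 39 without WT day 9 replicates 1 and 2, and 44 without either WT array of day 12.

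**Figure D4:**
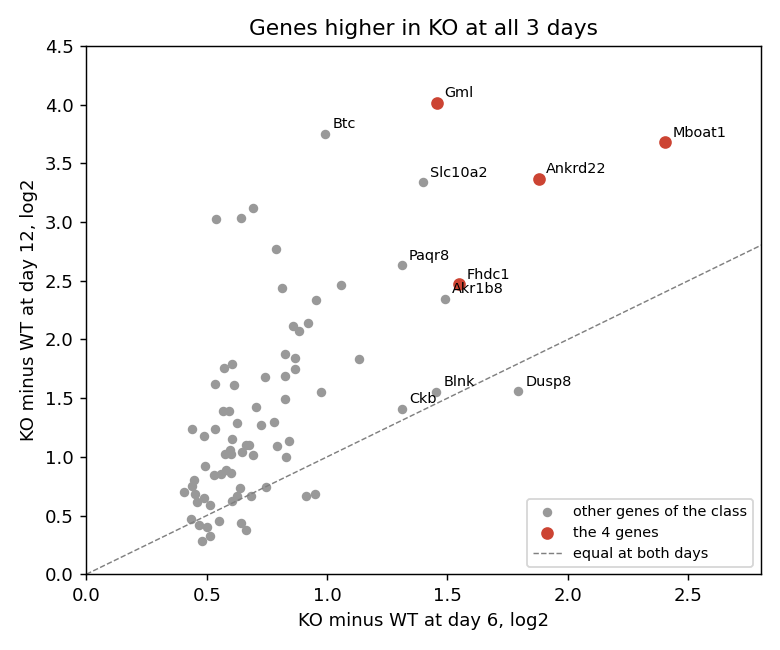
KO minus WT at day 12 (y axis, log2) against day 6 (x axis, log2) for the 80 genes higher in KO at all 3 days; red points are the 4 genes, grey points the others, and the dashed line marks equal differences. Mboat1 lies farthest right at 2.40, and Gml lies highest at 4.02; Dusp8 and Blnk lie near the dashed line.

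Smooth muscle markers moved with genotype at day 6, beside all 4 genes. Of 16 markers, 2 were called lower in KO and 0 higher, the background share for lower being 0.431%, and their median difference was -1.49. Their summed linear signal was 9350 to 15389 in WT and 4423 to 4903 in KO, with 0 of the 16 at or below the background level in either group. With the mean of that list as a covariate, KO minus WT at day 6 was 2.41 for Mboat1, 1.79 for Ankrd22, 1.90 for Gml and 1.79 for Fhdc1. The SE at day 6 was wider with the covariate, 0.24 instead of 0.14 for Mboat1 and 0.38 instead of 0.24 for Fhdc1. The group of 80 genes became one of 6, which held Mboat1, Ankrd22 and Gml but not Fhdc1. Whether the other genes left it through muscle content or through the wider SE was not tested. Among the 6 WT arrays alone the list mean spanned 1.42 log2 units, while Mboat1 spanned 0.41, Ankrd22 0.47, Fhdc1 0.59 and Gml 0.91. In bulk tissue, fewer cells of a type and less RNA per cell cannot be told apart.

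Markers of other cells moved at the later days, when 12.6% of all genes were called higher and 17.1% lower (day 9) and 13.7% in each direction (day 12). Of 15 enterocyte markers, all above the background level in each group, 1 was called lower at day 6, 8 at day 9 and 9 at day 12, when 1 was higher. Their summed signal was 114973 to 119030 in WT and 81565 to 86240 in KO at day 9. General epithelial markers went the other way: of 8, 3 were higher and 0 lower at day 9, and 2 were higher and 1 lower at day 12. The summed signal of these 8 at day 9 was 28440 to 28472 in WT and 35368 to 36156 in KO. Of 8 T cell markers 5 were lower at day 9 and 6 at day 12, with 1 of the 8 at or below background in every group. Of 7 B and plasma cell markers 2 were lower at day 9 and 4 at day 12. Of 8 neutrophil markers 4 were higher at day 9 and 2 at day 12. At day 9, 6 of the 8 in WT and 5 in KO lay at or below background. At day 12 their summed signals were 243 to 253 in WT and 709 to 715 in KO, with 6 of the 8 at or below background. Ly6g of this list is also a Ly6/uPAR gene. Of 8 fibroblast markers 3 and 4 were higher, and of 8 macrophage markers 0 and 4, with 0 and 2 lower. Of 10 gastric genes, which would mark another part of the gut, 0 were called at day 6, and 2 and 1 were higher at days 9 and 12. At day 6, 5 of the 10 lay at or below background in WT and in KO, so they check the region weakly. Of 4 ileal genes 1, Slc10a2, was higher on each day, and 2 and 1 were lower at days 9 and 12. The part of these cells and regions in the values of the 4 genes at days 9 and 12 was not tested.

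The family and pathway lists, with the 4 genes left out, had no member called higher at day 6. There, limma called 0 of 25 acyltransferases higher (3 at an unadjusted p under 0.05), 0 of 32 phospholipases (3), 0 of 13 formins (2), 0 of 38 Ly6/uPAR genes (3) and 0 of 42 Ankrd genes (0). With 0.597% of all genes called higher on that day, lists this short would seldom hold a call. These counts therefore say little about the families. The count of higher acyltransferases changed under 3 of the alternatives. Among them were arrays centred on their medians, with 1 called higher, and leaving out WT day 6 replicate 2. Under that centring the share of day 6 calls that were higher went from 58.0% to 68.3%. List medians at day 6 lay between -0.01 and 0.03 log2 units, and that of all genes was 0.00.

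Other acyltransferases fell more often than they rose at day 9. At day 12 the counts were closer, 20.0% higher and 28.0% lower. The list held membrane-bound O-acyltransferases, the family of Mboat1, and glycerophospholipid acyltransferases. Of 25 acyltransferases 3 rose and 11 fell at day 9, against 12.6% higher and 17.1% lower among all genes, and 5 rose and 7 fell at day 12, against 13.7% in each direction. The list median was -0.24 at day 9 and -0.15 at day 12, where that of all genes was 0.02 on both days. Lpcat4, which acylates lysophosphatidylcholine, rose at both later days. At day 9 its WT arrays read 7.49 and 7.60 and its KO arrays 9.37 and 9.57, with no overlap. KO minus WT was 1.92 at day 9 (SE 0.20, limma adjusted p = 3.09e-05) and 1.65 at day 12, and at day 6 it was 0.94 (adjusted p = 0.0516). Agpat3, an acyltransferase of phosphatidic acid synthesis, fell at all 3 days (KO minus WT -0.56, -1.23 and -1.58, SE 0.12). Lclat1 fell by 1.12 at day 9, Gpat3 by 1.05 at day 12 and Lpgat1 by 1.02 at day 9.

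Of the relatives of Mboat1 that act on lysophospholipids, the 3 given here were not called at day 6. Mboat2, a lysophospholipid acyltransferase like Mboat1, stood at 0.05 at day 6 and 0.16 at day 9, and rose by 0.65 at day 12 (SE 0.11, limma adjusted p = 0.000945) from a WT mean under the background level. Mboat7, which acylates lysophosphatidylinositol, fell by 0.54 at day 9 and 0.57 at day 12. Lpcat3, the main acyltransferase for polyunsaturated phosphatidylcholine in enterocytes, fell by 0.47 at day 9 and 0.45 at day 12. These 3 were picked after their values were seen. The count of lower acyltransferases at day 9 was 7 without WT day 9 replicate 2. The day 6 call of Agpat3 was lost without WT day 6 replicate 1, either KO array of day 6 or any WT array of days 9 and 12, and with median centring, the muscle covariate or only the arrays of that day.

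The phospholipase list held phospholipases A and lysophospholipases, which make or use lysophospholipids, the substrates of Mboat1. Of its 32 genes, 2 rose and 9 fell at day 9 (6.25% and 28.1%, against 12.6% and 17.1% of all genes). At day 12, 6 rose and 8 fell (18.8% and 25.0%, against 13.7% each). Plb1, a brush border phospholipase, fell by 4.13 log2 units at day 9 (SE 0.75, limma adjusted p = 0.00165). Its differences at day 6 (-1.77) and day 12 (-2.09) did not pass (limma adjusted p = 0.375 and 0.0611). At day 6 its WT arrays read 11.40 and 11.60 and its KO arrays 9.86 and 9.59, with no overlap. At day 12 its WT arrays read 11.24 and 7.71 and its KO arrays 7.46 and 7.30, so WT replicate 2 lay near the KO level. The SE is shared by the 3 days, so this gap between the WT arrays of day 12 also widened it at day 6. The count of lower phospholipases at day 6, which was 0, changed under 3 of the alternatives. The secreted Pla2g2a and Pla2g2f fell by 1.04 and 0.98 at day 12, and Pafah2 by 0.70 at day 9. The 2 rises at day 9 became 0 or 1 without any one of WT day 6 replicates 1 and 2, KO day 6 replicates 1 and 2, WT day 9 replicate 2, KO day 9 replicates 1 and 2 and WT day 12 replicates 1 and 2, and 0 with arrays centred on their medians or with only those of day 9. The 8 falls at day 12 became 3 without WT day 12 replicate 1.

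Among formins, the family of Fhdc1, 3 of 13 rose and 1 fell at day 9, and the same counts held at day 12. These are 23.1% and 7.69% of 13 genes, against 12.6% and 17.1% of all genes at day 9 and 13.7% each at day 12. Fmnl2, a formin of the cell edge, had the largest difference among the formins that were called. At day 12 its WT arrays read 7.31 and 7.28 and its KO arrays 9.25 and 9.69, with no overlap. KO minus WT was -0.01, 0.87 and 2.17 at days 6, 9 and 12 (SE 0.17, limma adjusted p = 2.71e-06 at day 12). Inf2 rose by 0.46 and 0.55 at days 9 and 12, Daam1 by 0.77 at day 9 and Diaph2 by 0.66 at day 12. Fmn1 fell by 0.36 and 0.47. The 3 rises were 5 at day 9 without either KO array of day 12 or with only the arrays of day 9, and 5 at day 12 without KO day 12 replicate 1. The fall of Fmn1 at day 9 ended with quantile normalisation, with only the arrays of day 9, and without either KO array of day 6, either WT array of day 9 or 12, or KO day 9 replicate 1; the count of falls at day 12 was 0 without WT day 12 replicate 1 or KO day 12 replicate 2, and leaving out KO day 12 replicate 1 made it 2.

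Of 38 Ly6/uPAR genes, the family of Gml, 5 rose and 3 fell at day 9, or 13.2% and 7.89% against 12.6% and 17.1% of all genes. At day 12, 7 rose and 1 fell, or 18.4% and 2.63% against 13.7% each, with list medians of 0.10 and 0.05 log2 units. Plaur is the urokinase receptor, and at day 9 its WT arrays read 6.48 and 6.77 and its KO arrays 9.02 and 9.03, with no overlap. Its KO minus WT was 0.52 at day 6 (adjusted p = 0.141), 2.40 at day 9 (SE 0.14, limma adjusted p = 5.12e-07) and 2.55 at day 12. Ly6d rose by 2.60 and 1.67 at days 9 and 12, and Ly6g6c by 1.99 and 2.39. Psca rose by 0.38 and 2.34 from a WT mean under the background level, and its KO mean at day 9 (4.80) lay under that level too. Cd59a, an inhibitor of complement, fell by 2.88 at day 6 (SE 0.40, limma adjusted p = 0.00854), and this call was lost without WT day 6 replicate 1 or KO day 6 replicate 2, and with the muscle covariate. The 5 rises at day 9 were 3 without either WT array of that day, and the single fall at day 12 was 2 without WT day 12 replicate 2 or KO day 12 replicate 2.

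Of 42 Ankrd genes, 7 rose and 5 fell at day 9 (16.7% and 11.9%) and 5 rose and 3 fell at day 12 (11.9% and 7.14%), against 12.6% and 17.1% of all genes and then 13.7% each. Ankrd37, a target of the hypoxia response, rose by 1.69 at day 9 (SE 0.16, limma adjusted p = 1.70e-05) and 1.24 at day 12, and stood at 0.31 at day 6 (adjusted p = 0.513). Ankrd42 rose by 0.46 and 1.02, and Ankrd46 fell by 0.55 and 0.82. The 7 rises at day 9 were 3 without either WT array of that day and 4 without KO day 9 replicate 1, when the 5 falls were 3. The 3 falls at day 12 were 1 without WT day 12 replicate 1 or KO day 12 replicate 2.

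**Figure D5:**
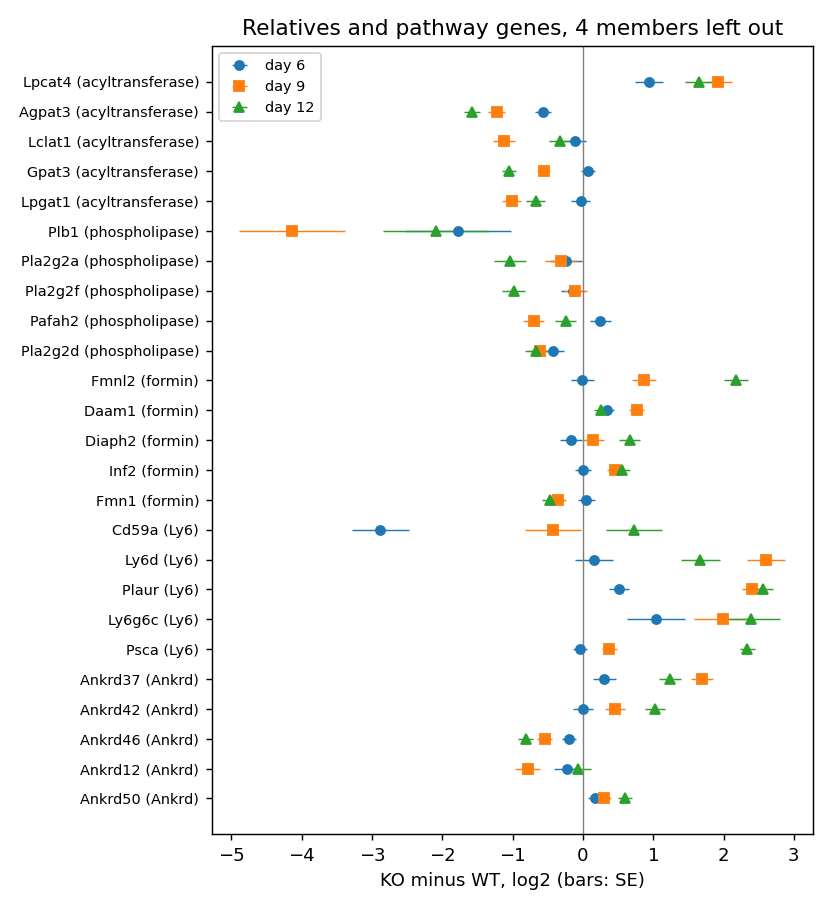
KO minus WT in log2 units (x axis, bars are SE) at days 6, 9 and 12 for up to 5 genes of each family or pathway list that were called at 1 or more days, the 4 genes left out (y axis). At day 6 most points lie near 0, with Cd59a at -2.88, Plb1 at -1.77, Ly6g6c at 1.04 and Lpcat4 at 0.94 farthest from it. Plaur, Ly6d, Ly6g6c, Psca, Lpcat4 and Fmnl2 lie at 1.92 or more on at least 1 later day, and Plb1 lies lowest, at -4.13 at day 9.

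The 4 genes lie on separate chromosomes. Of the 3 measured genes on each side of each member in the RefSeq gene order, 24 in all, limma called 0 at day 6 (4 at an unadjusted p under 0.05). With 0.597% of all genes called higher and 0.431% lower on that day, so few genes would seldom hold a call, and the count says little about the neighbourhood. At day 9, 1 rose and 5 fell, against 12.6% and 17.1% of all genes, and at day 12, 4 rose and 5 fell, against 13.7% each. Beside Gml lie several Ly6 genes: Ly6d rose at day 9 (above), Ly6k stood at 0.33 (adjusted p = 0.0801) and Ly6m fell at both later days (-0.82 and -2.30). Beside Ankrd22, the death receptor Fas fell by 1.42 at day 9 (SE 0.14, limma adjusted p = 2.27e-05) and the lipase genes Lipk, Lipn and Lipm had no call. Beside Mboat1, Cdkal1 fell by 1.45 at day 9 and the transcription factor Sox4 rose by 1.01 at day 12. Beside Fhdc1, the ubiquitin ligase Trim2 fell by 0.86 at day 9 and 0.51 at day 12.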

How the data were processed

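RNA of 12 jejunum samples was measured on Affymetrix Mouse Gene 1.0 ST arrays, per the labels' protocols. For each array the authors' log2 signals of 35556 probe sets (2.29 to 14.13, array medians 5.95 to 6.02) were taken as deposited. Limma and R 3.5 appear without a role in the submitters' processing notes, and no source used here gives the background correction or normalisation. Of the probe sets, 21789 carried 1 symbol, 1621 several and 12146 none in the platform table. The probe set with the highest mean was kept for each of 19938 genes.

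Group means were fitted over all 12 arrays with limma 3.58.1 in R 4.3.3 (6 residual and 5.23 prior degrees of freedom); p-values are two-sided, moderated and adjusted by Benjamini-Hochberg over all 19938 genes. Intervals are 95% from this fit. The number of arrays limits the precision (median SE of a difference 0.11). The fit was tested on simulated data. Alternatives were median centring, quantile normalisation, the mean of probe sets, a filter on dim genes, the replicate block, a mean-variance trend, the smooth muscle list mean as a covariate, only the arrays of a contrast, and leaving out each array.

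The members, lists and naming rule were chosen with earlier results of these data known. Named were the members, their 3 nearest profiles, the leading genes of the 80, up to 5 called genes per list, and 3 neighbours per side. RefSeq symbols matched 19919 genes.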

Additional observations from a re-analysis of the deposited data

How the results depend on the processing

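The sign of KO minus WT was fixed by the choice of the genes, so only its size is given. The day 6 to day 9 step in KO kept its side of the threshold for all 4 genes under each alternative run. With 1 array left out, KO minus WT ran from 2.23 to 2.58 for Mboat1 and 1.74 to 2.02 for Ankrd22 at day 6, from 1.26 to 1.84 at day 6 and 1.23 to 1.81 at day 9 for Fhdc1, from 3.76 to 4.30 for Gml at day 9, and from 3.50 to 3.85 for Mboat1 at day 12; Gml at day 6 was 1.90 with the muscle covariate. The day 9 to day 12 step in KO, with 1 array left out, ran from 0.36 to 0.59 for Ankrd22, 0.96 to 1.29 for Fhdc1 and -0.79 to -0.32 for Gml. It was 0.35, 0.54 and 0.48 for Ankrd22 with quantile normalisation, the muscle covariate and only the arrays of the contrast, -0.63 and -0.85 for Gml with the first 2 of these, and 0.96 for Fhdc1 with the covariate. The causes were not tested. The 80 genes higher at all 3 days were 11 to 105 with 1 array left out, 6 with the covariate and 53 with only the arrays of the contrast.

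Same-numbered KO and WT arrays had deviations that correlated at 0.18, -0.09 and 0.11 across genes at days 6, 9 and 12, so the numbers were not taken to pair mice. With the replicate block, the 80 genes became 52, and no call on the 4 genes changed, while Agpat3 was no longer called at day 6.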
